A study of Mus musculus with 4 samples.

Results

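Accessibility was examined at 8 genes that regulate lipid synthesis: Srebf1 and Srebf2, which encode the SREBP transcription factors, Scap, Insig1 and Insig2, which control SREBP transport, Mlxipl, which encodes ChREBP, its partner Mlx, and Thrsp. The members were given as a list of genes, and each was measured by the peaks on its gene body and the 2000 bases upstream. Of 189598 deposited peaks, 48 belonged to 7 of the 8 members, among 17173 protein-coding genes with at least 1 peak, and no member peak was shared with another gene. Insig1 had 0 peaks in this interval and has no value.

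The peaks came from single-nucleus ATAC-seq, which reads open chromatin and not RNA, of whole inguinal white adipose tissue (iWAT). The animals were male C57BL/6 mice of 8 weeks, with no transgene named in the labels. Groups of 3 mice were taken before any intervention at 22 °C (day0RT), after 1, 3 or 7 days at 6.5 °C (day1C, day3C and day7C), or after 1, 3 or 7 days of CL-316,243 at 1 mg/kg, a selective agonist of the β3-adrenergic receptor, at room temperature (day1CL, day3CL and day7CL). All 21 mice were of 1 sex and strain and all comparisons with day0RT used the same 3 mice.

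SREBPs are made as membrane proteins of the endoplasmic reticulum. SCAP escorts them to the Golgi, where they are cut to release the active factor, and INSIG proteins hold SCAP back when sterols are plentiful. SREBP-1c favors fatty acid genes, SREBP-2 favors cholesterol genes, and ChREBP, bound to MLX, drives glycolytic and lipogenic genes in response to glucose metabolites. In adipose tissue ChREBP-β, an isoform from an upstream start that lacks the part inhibiting ChREBP at low glucose, is itself a target of ChREBP.

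Mlxipl and Srebf1 each have alternative starts that give different proteins, and each start has a peak of its own. In the RefSeq annotation the Mlxipl starts lie 17001 bases apart on chromosome 5: the upstream start at 135089890 gives 687 residues (the β form) and the start at 135106891 gives 864 residues (the α form). The Srebf1 starts compared lie 10156 bases apart on chromosome 11, with the 1a start at 60220627 (1134 residues) and the 1c start at 60210471 (1110 residues). Printed below are the windows around these starts and the central bases of an intronic Srebf2 peak that differed between beige and white adipocytes. They are RefSeq GRCm38.p6 (mm10), 5′ to 3′ on the strand of the gene: chr5:135089640-135089939 (+), chr5:135106641-135106940 (+), chr11:60210422-60210721 (-), chr11:60220578-60220877 (-) and chr15:82160845-82161144 (+). Capitals mark matches to the motifs searched, whose bearing on accessibility was not tested.
Mlxipl beta start: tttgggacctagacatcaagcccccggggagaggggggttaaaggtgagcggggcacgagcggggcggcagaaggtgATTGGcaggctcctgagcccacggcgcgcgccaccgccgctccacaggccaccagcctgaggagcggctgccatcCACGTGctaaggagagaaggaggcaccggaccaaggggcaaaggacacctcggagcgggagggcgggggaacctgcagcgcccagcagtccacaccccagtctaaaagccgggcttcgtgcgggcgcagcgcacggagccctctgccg
Mlxipl alpha start: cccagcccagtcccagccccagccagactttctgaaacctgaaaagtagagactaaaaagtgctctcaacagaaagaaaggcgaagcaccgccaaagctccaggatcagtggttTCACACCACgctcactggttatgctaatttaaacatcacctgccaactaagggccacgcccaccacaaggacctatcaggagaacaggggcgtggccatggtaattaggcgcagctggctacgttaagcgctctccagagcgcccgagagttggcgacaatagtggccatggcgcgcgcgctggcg
Srebf1 1c start: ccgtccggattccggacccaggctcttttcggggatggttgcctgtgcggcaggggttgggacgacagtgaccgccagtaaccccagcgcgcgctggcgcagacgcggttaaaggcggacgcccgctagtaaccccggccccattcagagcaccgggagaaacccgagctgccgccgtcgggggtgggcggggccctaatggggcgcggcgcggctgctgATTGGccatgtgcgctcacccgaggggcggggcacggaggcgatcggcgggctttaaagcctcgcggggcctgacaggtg
Srebf1 1a start: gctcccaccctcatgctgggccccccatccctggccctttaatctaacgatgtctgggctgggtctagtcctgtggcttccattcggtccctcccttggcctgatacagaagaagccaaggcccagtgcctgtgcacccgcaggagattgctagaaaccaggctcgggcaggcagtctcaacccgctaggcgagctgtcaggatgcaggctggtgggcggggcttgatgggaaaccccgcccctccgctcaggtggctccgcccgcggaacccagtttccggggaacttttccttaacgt
Srebf2 intronic peak: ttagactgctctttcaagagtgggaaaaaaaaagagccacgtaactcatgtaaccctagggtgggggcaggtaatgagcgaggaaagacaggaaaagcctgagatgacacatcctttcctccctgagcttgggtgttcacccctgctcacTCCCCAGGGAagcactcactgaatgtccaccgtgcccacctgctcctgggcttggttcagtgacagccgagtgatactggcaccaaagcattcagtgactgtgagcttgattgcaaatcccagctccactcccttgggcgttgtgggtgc

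The search covered both strands of each window of 300 bases (250 before and 50 after the start). It was made for 11 motifs as exact strings, with N for any base, so sites that depart from these strings are not marked. No marked match overlaps another. The β window holds the E-box CACGTG, the core of ChREBP and SREBP sites, at -98, and ATTGG, the reverse of the CCAAT box bound by NF-Y, at -173. The α window holds TCACACCAC, a match to the sterol regulatory element TCACNCCAC, at -136. Of these strings the 1c window holds ATTGG alone, at -30, and the 1a window holds none. Variant sites for the same factors were not searched for, so the windows may hold them. Over 32851 RefSeq promoter windows of this length the E-box was found in 7.15%, the sterol element in 1.24% and CCAAT in 37.4%. CACGTG also lies in the windows of Insig1, Scap and Mlx. The tandem of E-boxes with 5 bases between them was found in 0 of the 32851 windows. The Srebf2 window holds TCCCCAGGGA, a match to the palindrome of EBF factors, which the central 300 bases of 1.5% of all 189598 peaks hold.

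Each mouse gave 1111 to 2021 nuclei and 1340376 to 6916698 counts. Nuclei were called white or beige adipocytes by the deposited annotation, 7004 in all with 1069 beige, and were summed per mouse. Each matrix entry is 0 or 1, so a summed count is the number of nuclei with a fragment in the peak, and 1 peak cannot count more than once per nucleus. Adipocyte nuclei numbered 29 to 933 per mouse, with the fewest in day1CL replicate 1. The 7 adipocyte markers summed to 2001 to 2320 CPM (counts per 1000000 counts on genes) at day0RT, 2270 to 2458 at day1C, 1858 to 2055 at day3C and 1720 to 1906 at day7C, and to 1722 to 2034 in the CL mice. Of the 7, 3 were lower than at day0RT and 1 higher at day3C, and 5 and 0 at day7C. With CL 1 was lower and 0 higher at day1CL, 4 and 1 at day3CL, and 4 and 1 at day7CL. Of all genes 0.777% to 3.12% were lower and 0.888% to 4.61% higher in these comparisons. Beige nuclei made up 7.69 to 12.2% of adipocyte nuclei at day0RT, 26.1 to 32.5% at day7C and 14.5 to 23.5% at day7CL. Barcode strings were shared with another mouse by 8739 nuclei (4218 strings), and by 0 within a day.

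At the level of whole genes, no member passed the test in any of the 11 comparisons between groups. Adjusted p ranged from 0.124 to 1.0 over 7 members, with the threshold at 0.05. The background of genes that passed, of 14408 tested, was 0.34%, 1.67% and 5.02% for day1C, day3C and day7C against day0RT and 2.58%, 4.77% and 7.73% for day1CL, day3CL and day7CL. It was 2.33% for the mean of the cold days and 6.41% for the mean of the CL days. At an unadjusted p under 0.05, 0 of 7 members passed in each of these 8 comparisons, and DESeq2 called 0 in all 11. The members' median log2 fold change lay between -0.03 (day1CL) and 0.19 (day3C), beside medians over all genes of -0.01 to 0. DESeq2 gave an adjusted p to 4 to 7 of the 7 members in each comparison. On simulated data the fit of day7C against day0RT recovered 2% of 50 genes with a median change of 0.279 (log2, without sign). It recovered 36% at a median of 0.547 and 76% at 0.967. For changes as small as those of the members at day7C, the lack of a call therefore does not show a lack of change.

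**Figure D1:**
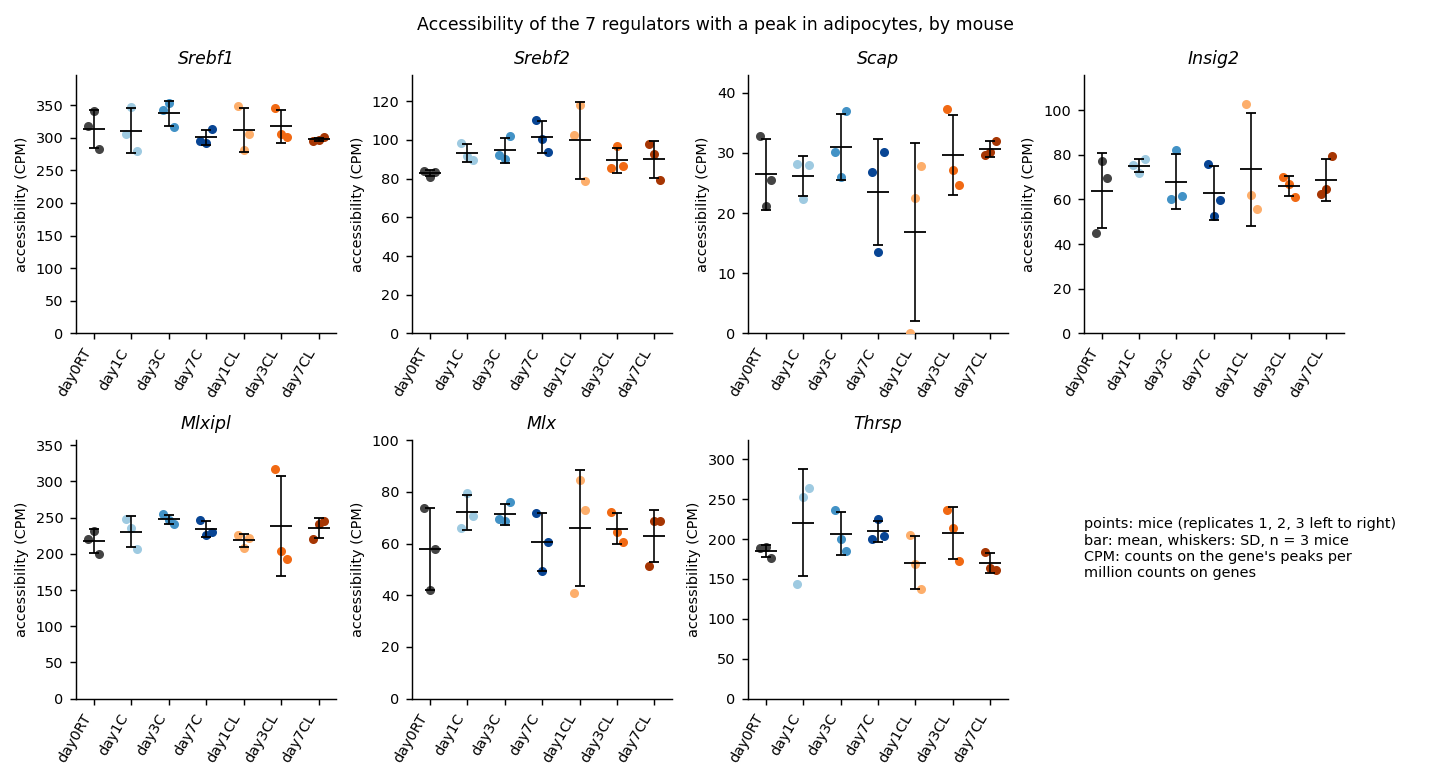
Accessibility of the 7 regulators with a peak in adipocytes (white and beige nuclei summed), as CPM on the y axis, by group on the x axis, with 1 point per mouse and the mean and SD of 3 mice. The groups overlap for most members, Srebf2 sits between 80.91 and 83.96 in the 3 day0RT mice, and Scap is at 0 in 1 day1CL mouse.

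Srebf1, the gene of SREBP-1, did not pass the test on any day. Its CPM was 317.4, 341.2 and 282.4 in the day0RT mice, 342.9, 353.7 and 316.5 at day3C, and 346.1, 305.1 and 301.1 at day3CL. Every treated group overlapped with day0RT. Its log2 fold change against day0RT was 0.13 ± 0.10 (SE) at day3C, adjusted p = 0.611, and -0.03 ± 0.11 at day7C, adjusted p = 0.989.

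Srebf2, the gene of SREBP-2, was at 83.96, 80.91 and 83.33 CPM at day0RT. It was at 98.2, 91.87 and 89.4 at day1C, at 91.99, 89.95 and 101.8 at day3C, and at 110.3, 100.5 and 93.81 at day7C. All 9 cold mice lay above the 3 day0RT mice, and so did the 3 day3CL mice at 85.43, 96.99 and 86.35. The fold change was 0.28 ± 0.15 (log2, SE) at day7C, adjusted p = 0.323, and 0.17 ± 0.15 at day3C, adjusted p = 0.644. Groups that do not overlap were common among all genes, at 14.3%, 18.3%, 23.6% and 22.1% for day1C, day3C, day7C and day3CL. Over the peaks within 2000 bases of the gene start alone the Srebf2 change at day7C turned, to -0.26, adjusted p = 0.665. Beside Srebf2, Mlxipl at day3C and Thrsp at day7C were the members whose 3 mice did not overlap with day0RT.

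Scap and Insig2, which hold or move SREBPs, did not pass the test in any comparison between groups. Scap, the escort, was at 32.77, 21.11 and 25.46 CPM at day0RT and at 26.78, 13.5 and 30.21 at day7C. It rested on 6 to 22 counts per day0RT mouse and on 0 counts in day1CL replicate 1. Insig2, a retention protein, was at 45.05, 77.39 and 69.44 CPM at day0RT and at 62.2, 64.56 and 79.33 at day7CL. Day0RT and treated mice overlapped for both genes, with log2 fold changes of -0.10 ± 0.28 (SE) for Scap at day7C and 0.06 ± 0.17 for Insig2 at day7CL. At the depth of Scap the SE alone was 0.24 to 0.31 against day0RT on every single day, so a change of that size was not detectable at this depth.

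Mlxipl was at 221.2, 232.2 and 200.2 CPM at day0RT, at 254.5, 247.0 and 241.5 at day3C, and at 246.3, 226.6 and 229.8 at day7C. At day3CL replicate 1 was highest at 317.6 and the other mice were at 204.0 and 193.4. The day3C mice lay above all day0RT mice and the other groups overlapped with them. The fold change was 0.21 ± 0.12 (log2, SE) at day3C, adjusted p = 0.43, and 0.13 ± 0.13 at day7C, adjusted p = 0.629. Counted only over peaks within 2000 bases of the gene start, Mlxipl passed the test at day7C, day3CL, day7CL and for both treatment means. The log2 fold changes were 1.80 to 2.27, with adjusted p of 0.00407 to 0.0493. For Mlxipl this count is the β start peak alone, described below, and not a separate result for the gene.

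Mlx, which pairs with ChREBP on DNA, was at 73.72, 42.21 and 57.87 CPM at day0RT and at 65.81, 79.46 and 70.77 at day1C. The day0RT mice spanned the range of most treated mice. Its largest fold change against day0RT was 0.28 ± 0.20 (log2, SE) at day1CL, adjusted p = 0.541.

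Thrsp (Spot14), a small protein induced with lipogenesis by thyroid hormone, SREBP-1c and ChREBP, was at 188.4, 190.0 and 175.9 CPM at day0RT. It was at 200.3, 225.1 and 204.3 at day7C and at 184.2, 163.5 and 161.7 at day7CL. All 3 day7C mice lay above day0RT, and the day7CL mice overlapped with it. The fold changes were 0.19 ± 0.14 and -0.07 ± 0.14 (log2, SE), adjusted p = 0.508 and 0.839.

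The peak at the β start of Mlxipl, chr5:135089480-135090727, was more accessible at day7C, day7CL and day3CL than at day0RT. Its group mean was 4 CPM at day0RT, where CPM is per 1000000 counts on peaks, and 10.3 to 16 in the 6 treated groups. Its CPM was 8.31, 2.79 and 0.913 in the day0RT mice, from 5, 1 and 1 nuclei with a count. It was 21.9, 14.1 and 11.9 at day7C, 15, 12.9 and 8.29 at day7CL, and 20.9, 11.8 and 6.59 at day3CL. The day7C mice lay above all day0RT mice, while replicate 3 of day7CL and of day3CL lay below day0RT replicate 1. Of all peaks tested, 22.5% had no overlap between day7C and day0RT. Replicate 3 was the lowest mouse in each of the 7 groups. The day0RT mice all lay below the cutoff of the filter on low counts, so the peak entered the test through treated mice alone. The log2 fold change was 2.17 ± 0.49 (SE) at day7C, adjusted p = 0.00292, 2.00 ± 0.48 at day7CL, adjusted p = 0.00454, and 1.68 ± 0.50 at day3CL, adjusted p = 0.032.

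On the remaining days the fold change of the Mlxipl β start was positive and did not pass the test. CPM was 10.9, 22 and 7.43 at day1C, 11.4, 13.2 and 6.12 at day3C, and 16, 13.3 and 8.46 at day1CL. Replicate 3 of day1C and of day3C lay below day0RT replicate 1, and all other mice of these groups above it. The log2 fold changes were 1.85 ± 0.55 (SE), adjusted p = 0.128, 1.64 ± 0.50, adjusted p = 0.0663, and 1.43 ± 0.61, adjusted p = 0.227. Averaged over the 3 days, the change was 1.89 ± 0.46 for cold, adjusted p = 0.0119, and 1.70 ± 0.48 for CL, adjusted p = 0.0194. With the replicate number as a block the changes were 2.10 at day7C, 1.69 at day7CL and 1.60 at day3CL, adjusted p = 0.00463, 0.0338 and 0.0523, and the means were 1.69 for cold and 1.68 for CL, adjusted p = 0.0433 and 0.0222. These comparisons share the day0RT mice and are not independent of each other.

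The call depended on the day0RT libraries and on the tool. Without day0RT replicate 3 the fold change was 1.32 at day7C, adjusted p = 0.241, 1.14 at day7CL, adjusted p = 0.297, and 0.82 at day3CL, adjusted p = 0.543, and the means were 1.04 for cold and 0.84 for CL, adjusted p = 0.497 and 0.506. Without day0RT replicate 1 the changes were larger, 3.44 at day7C, 3.26 at day7CL and 2.94 at day3CL, and 3.16 and 2.96 for the means. The changes at day1C and day3C then also passed, at 3.12 and 2.91, adjusted p = 0.0266 and 0.0236. DESeq2 gave 2.21 at day7C, 1.93 at day7CL and 1.78 at day3CL, adjusted p = 0.176, 0.276 and 0.326. In white adipocyte nuclei alone, an alternative chosen after seeing the data, the change was 1.94 at day7C, adjusted p = 0.145, and 2.30 at day7CL, adjusted p = 0.00919. Without day7C replicate 1 the day7C change was 1.87, adjusted p = 0.058, and without day7CL replicate 1 the day7CL change was 1.69, adjusted p = 0.155. The day3CL call was also lost without day0RT replicate 2, day3CL replicate 1 or day3CL replicate 2, adjusted p = 0.0865, 0.0752 and 0.202, and without the filter on low counts, adjusted p = 0.0858. Without that filter the changes were 2.25 at day7C and 2.06 at day7CL, adjusted p = 0.0108 and 0.0188. The means were then 1.95 for cold and 1.76 for CL, adjusted p = 0.0519 and 0.0741, and did not pass. Of the 6 beige markers, 3 rose at day7C and 3 at day7CL, where 2.94% and 4.61% of all genes rose. The adipocyte markers that changed are given above. The part of these shifts in the β start values was not tested.

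The α start peak of the same gene, chr5:135106608-135107263, did not pass the test on any day. Its CPM was 41.5, 41.9 and 31.1 at day0RT, 26.1, 37.7 and 27.5 at day7C, and 21.7, 28.2 and 32 at day7CL. At least 1 mouse of each treated group here lay within the range of day0RT. The log2 fold change was -0.29 ± 0.22 (SE) at day7C, adjusted p = 0.538, and -0.50 ± 0.21 at day7CL, adjusted p = 0.163. The peak with the highest level on Mlxipl, the intronic peak chr5:135107566-135109388 just inside the α start, had a mean of 57.4 CPM and 31.4% of the counts of the gene.

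**Figure D2:**
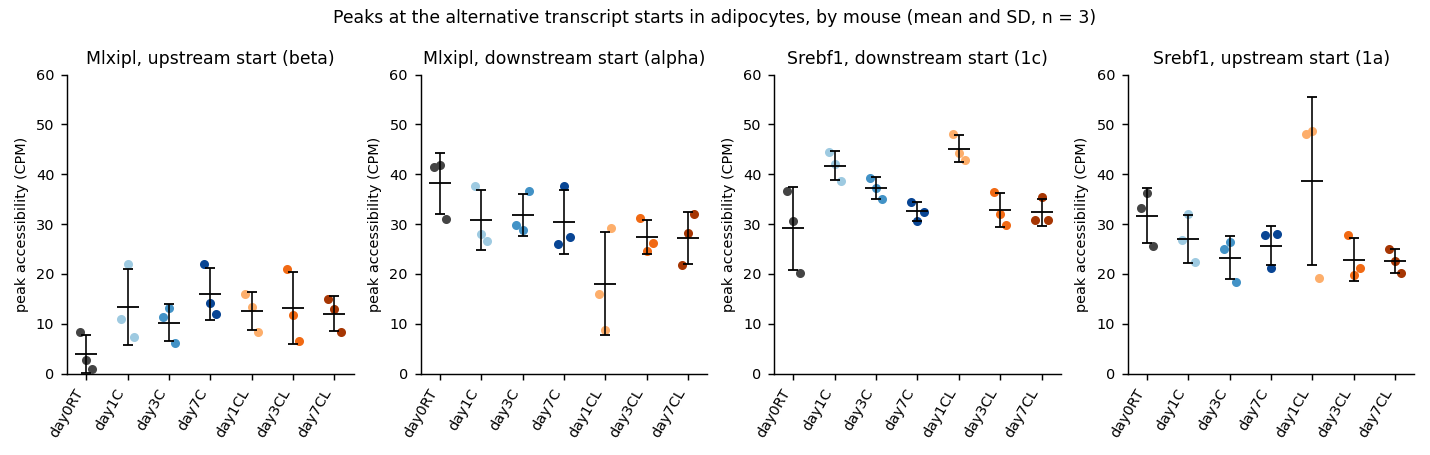
Accessibility of the peaks at the alternative starts of Mlxipl (β and α) and Srebf1 (1c and 1a) in adipocytes, as CPM on the y axis by group, with 1 point per mouse and the mean and SD of 3 mice. At the β start all 3 day0RT mice lie at or below 8.31 CPM, while at the α start they reach 41.9 CPM.

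Of the 33 member peaks tested, 1 passed at day7C, 1 at day7CL, 1 at day3C and 2 at day3CL, beside backgrounds of 3.13%, 4.19%, 1.28% and 3.46% of 47835 peaks. At day1C and day1CL 0 passed with edgeR or DESeq2, and the background of edgeR calls was 0.213% and 2.06%. At an unadjusted edgeR p under 0.05 were 4 and 9 of the 33, beside 4668 and 6886 of all 47835 peaks. For the mean of the cold days and of the CL days the β start peak alone passed, beside 1.43% and 3.9%. DESeq2 called 0 member peaks in every comparison between groups, where it called 0 to 79 of all peaks. The calls other than the β start were intronic peaks of Thrsp. The peak chr7:97414504-97414798 was at 13.3, 22.3 and 13.7 CPM at day0RT and at 32, 24.1 and 20.1 at day3C, a log2 fold change of 0.95 ± 0.26 (SE), adjusted p = 0.0383. The peak chr7:97415001-97415993 was at 46.5, 19.5 and 35.6 CPM at day0RT and at 60.9, 62.4 and 38.2 at day3CL, 0.61 ± 0.19, adjusted p = 0.0436. In each case 1 treated mouse lay within the range of day0RT, and each call was lost without day0RT replicate 3, at adjusted p = 0.364 and 0.254. Without day3C replicate 1 the first change was 0.55, adjusted p = 0.592, and without day3CL replicate 2 the second was 0.29, adjusted p = 0.639. The central bases of the first peak hold TCAAGGTCA, the sequence known for ERR factors, as do 0.632% of all peaks.

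The start peak of Thrsp, chr7:97417205-97417871, also its highest at a mean of 49.2 CPM, gave a negative value on the first day of CL. It was at 49.9, 69.8 and 55.7 CPM at day0RT and at 32.1, 39.8 and 32.7 at day1CL. The groups did not overlap, as for 16% of all peaks tested, and the log2 fold change of -0.74 ± 0.23 (SE) missed the threshold with an adjusted p of 0.0532. Day1CL replicate 1 contributed 2 counts to it.

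The start peaks of Srebf1 did not pass the test on any day. The 1c start, chr11:60210180-60210886, was at 36.6, 30.7 and 20.1 CPM at day0RT, at 44.4, 42 and 38.6 at day1C, and at 48.1, 44.2 and 42.9 at day1CL. The mice of both treatments on day 1 lay above all day0RT mice, where 13.8% (cold) and 16% (CL) of all peaks had groups without overlap. The log2 fold changes were 0.68 ± 0.24 (SE) and 0.70 ± 0.25, adjusted p = 0.242 and 0.116. At the 1a start, chr11:60220209-60220987, day0RT was at 33.2, 36.3 and 25.6 CPM and day3CL at 27.8, 19.8 and 21.1, -0.46 ± 0.23, adjusted p = 0.272. The highest peak of Srebf1 was the intronic peak chr11:60208860-60209911, with a mean of 48.1 CPM, and the peak nearest its annotated start, chr11:60222587-60223363, had 27.1 CPM.

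The start peaks were also the highest peaks for Scap, Mlx and Srebf2. They held 88.9% of the counts of Scap (chr9:110332957-110333937), 41.8% of those of Mlx (chr11:101086831-101087865) and 43% of those of Srebf2 (chr15:82146529-82147583). For Insig2 the highest peak, chr1:121326786-121328464, lay at an internal start and held 78.9% of the counts, while the peak at the annotated start had a mean of 6.21 CPM. None of these peaks passed the test between groups. The Srebf2 start peak had log2 fold changes of -0.40 ± 0.23 (SE) at day7C and -0.48 ± 0.22 at day7CL, adjusted p = 0.36 and 0.189.

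The ratio of the start peaks within a mouse was not scaled for depth, but a constant added to each count weighs more where counts are few. It was computed after these values were seen, as the log2 ratio of counts with 0.5 added to each. For Mlxipl β over α it was -2.21, -3.37 and -4.52 in the day0RT mice. In the 9 cold mice it ranged from -2.50 to -0.25 and in the 9 CL mice from -1.97 to 0.49. The highest CL values, 0.49 and 0, rested on 3 and 2 counts in day1CL replicate 2 and on 1 and 1 in day1CL replicate 1. Of the cold mice 8 lay above all day0RT mice, and of the CL mice 9. Ratios were computed for the start peaks of Mlxipl and Srebf1 alone, so how common such a shift is among other pairs of peaks was not tested. In pooled counts, day0RT had 7 nuclei with a count at the β start and 74 at the α start, of 637 adipocyte nuclei. Day7C had 57 and 107 of 921, and day7CL had 81 and 146 of 1158.

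The mean ratio differed by 2.08 (log2) for cold, p = 0.00909, and by 2.44 for CL, p = 0.00455, by an exact two-sided permutation test over mice, where 0.00455 is the smallest value that 220 arrangements can give. Adjusted over the 6 ratio tests made, these were p = 0.0109 and 0.00683 in the permutation test. The peak calls had drawn attention to this ratio, so its test is not independent of them. Without day0RT replicate 3 the difference for cold was 1.50, exact p = 0.0545. Within replicate numbers 1, 2 and 3 the difference was 1.09, 2.44 and 2.71 for cold and 1.85, 2.81 and 2.66 for CL, each against 1 day0RT mouse. With the replicate number as a block, exact permutation gave p = 0.0156 for cold and 0.0156 for CL, the smallest value that the blocked test can give. In white nuclei alone, without the block, the difference was 1.86 for cold and 2.36 for CL, exact p = 0.00455 and 0.0136.

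**Figure D3:**
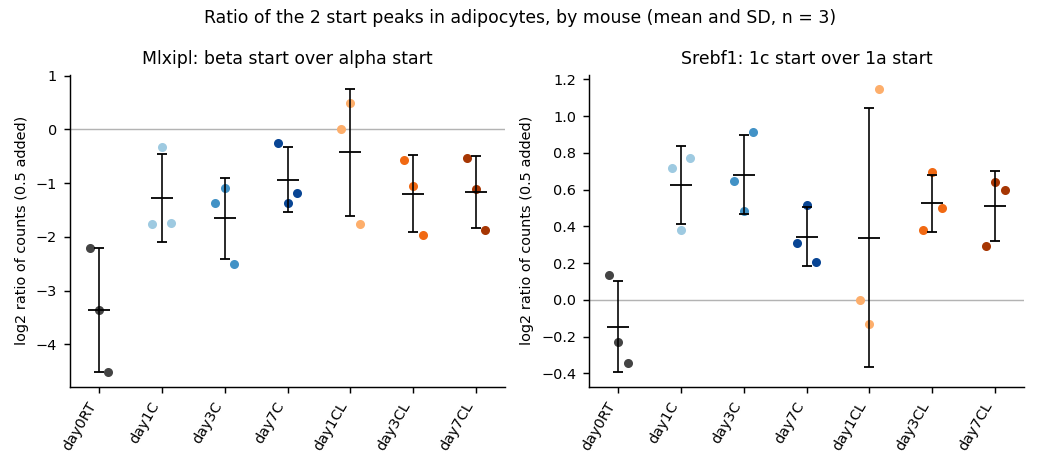
Log2 ratio of the counts at the start peaks (0.5 added to each) in adipocytes, for Mlxipl β over α and Srebf1 1c over 1a, by group, with 1 point per mouse and the mean and SD of 3 mice. For Mlxipl the day0RT mice lie at -2.21 or lower, and for Srebf1 at 0.13 or lower.

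For Srebf1 1c over 1a the ratio was 0.13, -0.23 and -0.34 (log2) in the day0RT mice. It ranged from 0.21 to 0.91 in the cold mice and from -0.13 to 1.15 in the CL mice. All 9 cold mice and 7 of 9 CL mice lay above day0RT, again with no share over other pairs of peaks to set beside them. The mean differed by 0.70 for cold, exact permutation p = 0.00455, and by 0.605 for CL, exact permutation p = 0.0409, or p = 0.00683 and 0.0409 adjusted over the 6 permutation tests. Within replicate numbers 1, 2 and 3 the Srebf1 difference was 0.43, 0.69 and 0.97 for cold and 0.09, 0.63 and 1.09 for CL. With the number as a block, exact permutation gave p = 0.0156 for cold, again the smallest value possible, and 0.0469 for CL. Leaving out any of 7 mice (day0RT replicates 2 and 3, day3CL replicates 1 and 2, or any day7CL mouse) moved the CL test past the threshold, with exact permutation p between 0.0545 and 0.145. The CL mice below day0RT replicate 1 were day1CL replicates 1 and 2, with 3 and 10 counts at the 1c start.

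CL and cold were also compared with each other on the same day. Of the 7 members, 0 passed with edgeR or DESeq2 on day 1, day 3 or day 7, beside a background of 0.916%, 1.46% and 0.111% of genes. At an unadjusted edgeR p under 0.05 were 1, 0 and 1 members, beside 1841, 1739 and 1226 of all 14408 genes. Thrsp came closest. It was at 143.1, 253.3 and 264.5 CPM at day1C and at 205.0, 168.8 and 138.0 at day1CL, a log2 difference (CL against cold) of -0.52 ± 0.17 (SE), adjusted p = 0.124. The 7 adipocyte markers moved with it: the difference was negative for all 7, with a median of -0.415 (log2), and 1 passed. Their part in the Thrsp value was not tested. Day1C replicate 1 stood apart from its group, and without it the difference was -0.84, adjusted p = 0.00726. At day 7 the Thrsp mice of CL and cold did not overlap, -0.26 ± 0.12, adjusted p = 0.566, where 12.7% of all genes had groups without overlap. The β start peak of Mlxipl differed by -0.42 ± 0.44, 0.03 ± 0.26 and -0.17 ± 0.27 (log2, SE) on days 1, 3 and 7, adjusted p = 0.762, 0.978 and 0.958. Of the 33 member peaks 0 passed on any of these days with edgeR or DESeq2, where 0.458%, 1.79% and 0.023% of all peaks passed with edgeR. At an unadjusted edgeR p under 0.05 were 6, 5 and 3 member peaks, beside 5712, 5991 and 3058 of all 47835 peaks.

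Beige and white adipocytes were compared over libraries of at least 10 nuclei, 19 beige and 21 white, with the group as a covariate and not the mouse, and 19 mice had both. The clusters were made by the authors from these counts, so this comparison is not independent of them. Of the 7 members, 2 passed the test and both were higher in beige, beside 28.8% of 12751 genes. The members' median log2 fold change was -0.04, beside 0.005 over all genes.

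Srebf2 ranged from 35.29 to 180.1 CPM in beige adipocytes, with a median of 119, and from 74.5 to 120.9 in white, with a median of 85.57. It was higher in beige in 18 of 19 mice, a log2 fold change of 0.42 ± 0.08 (SE), adjusted p = 2.55e-05. Mlxipl ranged from 124.5 to 335.3 CPM in beige, with a median of 256.5, and from 189.8 to 327 in white, with a median of 218.9. It was higher in beige in 17 of 19 mice, 0.24 ± 0.07, adjusted p = 0.00208. The ranges overlap for both genes, and the lowest beige value of each came from a day0RT mouse with 2 counts in the gene.

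The other members gave values in both directions that did not pass. Insig2 was at 52.14 ± 28 CPM in beige and 70.2 ± 10.8 in white (SD, n = 19 and 21 mice), -0.24 ± 0.11, adjusted p = 0.102. Srebf1 was at 295.4 ± 54.8 and 313.3 ± 29, Thrsp at 182.4 ± 53.2 and 197.3 ± 35.7, Mlx at 71.81 ± 24.2 and 64.51 ± 11.5, and Scap at 24.72 ± 16.1 and 26.92 ± 8.52. The adjusted p of these 5 lay between 0.102 and 0.743.

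**Figure D4:**
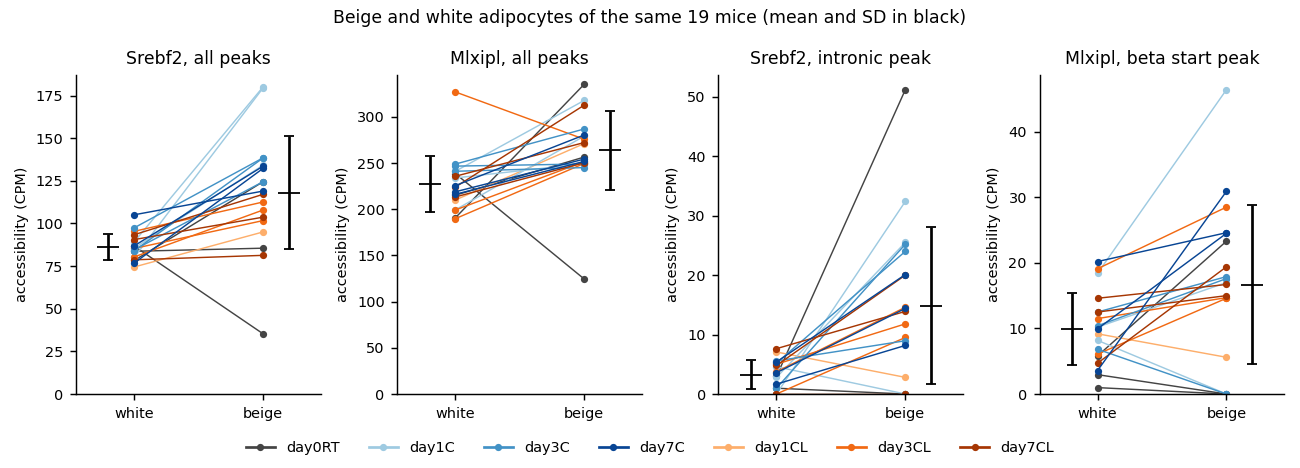
CPM in white and beige adipocytes of the same 19 mice, with 1 line per mouse colored by group and the mean and SD in black, for Srebf2, Mlxipl, the intronic Srebf2 peak and the β start peak of Mlxipl. Most lines rise from white to beige: 18 of 19 for Srebf2, 17 for Mlxipl and 14 for each peak.

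Of the 26 member peaks that could be tested between beige and white, 7 passed, 4 higher and 3 lower in beige, beside 27.2% of 24854 peaks. The difference of Srebf2 lay in its introns. The peak chr15:82160708-82161280, whose central bases are printed above with the EBF match, ranged from 0 to 51.2 CPM in beige, with a median of 13.9, and from 0 to 7.63 in white, with a median of 2.95. It was higher in beige in 14 of 19 mice, a log2 fold change of 1.57 ± 0.28 (SE), adjusted p = 8.23e-07. This peak passed the filter on low counts through beige libraries alone, so its test is not independent of that filter. Without the filter the change was 1.29, adjusted p = 2.28e-05. The highest beige value, 51.2 CPM, was 1 count in a day0RT mouse. The intronic peak chr15:82165958-82167191 was also higher, 0.56 ± 0.21, adjusted p = 0.034, or 0.48, adjusted p = 0.0749, with the mouse as a block. Over the peaks within 2000 bases of the Srebf2 start the change was 0.05, adjusted p = 0.894. The start peak was at 36.1 CPM in beige and 31.4 in white.

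On Mlxipl the β start peak ranged from 0 to 46.4 CPM in beige, with a median of 17, and from 0 to 20.2 in white, with a median of 9.94. It was higher in beige in 14 of 19 mice, 0.64 ± 0.21 (log2, SE), adjusted p = 0.0139. The α start peak did not pass, at 30.6 and 29.2 CPM, -0.05 ± 0.14, adjusted p = 0.848. The intronic peak chr5:135113847-135114230 was higher in beige in 16 of 19 mice, 0.63 ± 0.21, adjusted p = 0.0153. Without a filter on low counts neither Mlxipl peak passed, with 0.36 and 0.32, adjusted p = 0.209 and 0.27.

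The peaks lower in beige belonged to Srebf1 and Thrsp. The Srebf1 peak chr11:60199625-60200250, over an exon near the 3′ end, was at 14.7 ± 10.5 CPM in beige and 21.1 ± 6.28 in white (SD), and was higher in beige in 3 of 19 mice, -0.59 ± 0.18 (log2, SE), adjusted p = 0.00496. The Srebf1 intronic peak chr11:60208375-60208774 was at 19 ± 12.9 and 21.9 ± 5.65, adjusted p = 0.0483 and 0.135 by DESeq2. The Thrsp intronic peak chr7:97415001-97415993 was at 36 ± 20.2 and 46.5 ± 15.5, adjusted p = 0.00624 and 0.0956 by DESeq2. Neither the 1c nor the 1a start peak of Srebf1 passed, with log2 fold changes of -0.29 ± 0.13 and -0.14 ± 0.15, adjusted p = 0.0817 and 0.56.

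Across the 12 clusters of the deposited annotation, Srebf1, Mlxipl, Mlx and Thrsp had their highest mean in adipocytes and Srebf2, Scap and Insig2 in immune cells. The levels are a description, since the clusters were made from the same counts. Neighbors in the order of cluster means were compared within mice, and 2 of 77 neighbor pairs differed after adjustment, with 14 at an unadjusted permutation p under 0.05.

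Srebf1 was highest in white adipocytes, at 313.3 ± 29 CPM, then beige adipocytes at 295.4 ± 54.8, and lowest in the cluster VEC at 110.3 ± 83.6 (SD, n = 21, 19 and 15 mice). Thrsp had the same leading clusters, at 197.3 ± 35.7 and 182.4 ± 53.2, and was at 1.865 ± 3.26 in CD8 cells. Mlxipl was at 263.9 ± 42.7 in beige, 251.1 ± 63.9 in the cluster VSMC and 225.2 ± 29.4 in white adipocytes. The next cluster, T cells, was at 61.46 ± 29.8, a step of 2.19 on the log2 scale seen in 20 of 20 mice, permutation p adjusted over the 77 pairs = 0.00154. Mlx was highest in beige adipocytes, 71.81 ± 24.2, and lowest in dendritic cells, 17.91 ± 19.5, with no neighbors that differed.

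Srebf2, Scap and Insig2 were highest in immune cells. Srebf2 was at 305.7 ± 34.5 CPM in B cells, 243.1 ± 75.6 in CD4 cells and 87.85 ± 10.6 in white adipocytes. The step from B cells to CD4 cells, the mean within mice of the difference in log2(CPM + 1), was 0.69, higher in B cells in 15 of 20 mice, permutation p adjusted over the pairs = 0.0181. One CD4 library at 0 carried much of its size, and without that mouse the step was 0.28, adjusted permutation p = 0.0331. Insig2 was at 120.1 ± 16.7 in B cells and 51.3 ± 22.5 in the cluster VSMC. Scap was at 54.5 ± 34.1 in macrophages and 24.72 ± 16.1 in beige adipocytes, its lowest cluster. Counted over promoter peaks alone, the leading cluster was beige adipocytes for Srebf1, CD4 cells for Scap, macrophages for Insig2 and VEC for Mlx. Per kilobase of peak, the level in the leading cluster was 81.6 CPM for Thrsp, 53.2 for Srebf1, 49.1 for Srebf2, 37.6 for Mlx, 34.8 for Insig2, 33.3 for Mlxipl and 22.2 for Scap.

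**Figure D5:**
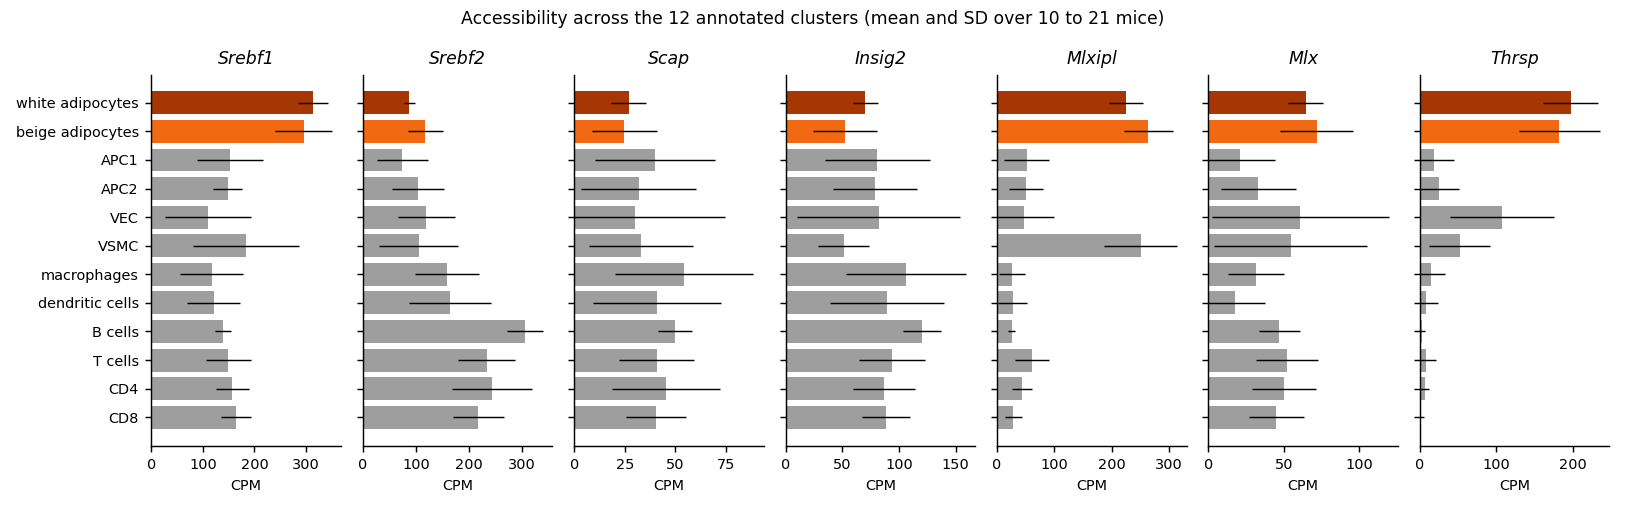
Mean CPM and SD over 10 to 21 mice of the 7 members in each of the 12 annotated clusters, with adipocyte clusters in color. Srebf1, Mlxipl and Thrsp have their longest bars in adipocytes, and Srebf2 in B cells at 305.7 CPM.

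Nuclei with a count at the start peaks of Mlxipl were also tallied by cluster. The β start peak had a count in 247 white and 84 beige adipocyte nuclei, and, over libraries of at least 10 nuclei, in at most 14 nuclei of any other cluster, the 14 being B cells of 11967 nuclei. These numbers are not levels, since white adipocytes held 5935 nuclei, APC1 658, VEC 314 and VSMC 252. A low number in a small cluster therefore does not show a lower level than in adipocytes. The cluster VSMC, second for Mlxipl as a whole, had 1 nucleus with a count at the β start and 25 at the α start. This cluster goes against its label: the 5 skeletal muscle markers summed to 1446 CPM in it, the highest of the 12 clusters, and the 4 smooth muscle markers to 100, where APC2 had 413.6. The cluster VEC held adipocyte markers at 719.4 CPM, the highest outside the adipocyte clusters, and Thrsp in it was at 107.3 ± 67.5, also the highest outside them. Their part in the Thrsp level was not tested.

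The genes most like each member over the 12 clusters, by the Pearson correlation of mean log2(CPM + 1) among 12152 genes, were Npr3 for Thrsp (r = 0.977), Tmem38b for Mlxipl (0.954), Sp3 for Srebf1 (0.96), Abhd17a for Srebf2 (0.975), Orc3 for Mlx (0.971), Rpl19 for Insig2 (0.974) and Mtg1 for Scap (0.973). The next in order were 4930455H04Rik and Palmd for Thrsp, Amhr2 and Tst for Mlxipl, Brd1 and Tulp2 for Srebf1, Lmntd2 and Rassf7 for Srebf2, Ppie and Ccdc69 for Mlx, Gng10 and 1700029J07Rik for Insig2, and Nsa2 and Cryz for Scap. These are correlations over 12 points that share mice, depth and the annotation, the best of many genes, and are given as a description.

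The enzymes that SREBP-1 and ChREBP are known to drive were described by lists over the same gene tests. Of 19 genes of fatty acid synthesis, all tested, 1, 5 and 9 rose at day1C, day3C and day7C and 0 fell. Of all genes 0.104%, 0.888% and 2.94% rose and 0.236%, 0.777% and 2.09% fell on these days. With CL 2, 12 and 4 of the 19 rose and 1, 0 and 2 fell on days 1, 3 and 7, where 1.14%, 3.07% and 4.61% of all genes rose and 1.44%, 1.69% and 3.12% fell. Leaving out 1 mouse gave 0 to 2, 2 to 6 and 6 to 10 higher for cold and 0 to 4, 9 to 12 and 2 to 5 for CL. At day3C 2 genes of the list passed without day3C replicate 1 or any 1 day0RT mouse, and at day1CL 0 passed without day1CL replicate 3. The median log2 fold change over the 19 was 0.37, 0.33 and 0.40 for cold and 0.10, 0.51 and 0.25 for CL. DESeq2 called 0, 3 and 7 higher for cold and 2, 8 and 2 for CL, with 0 lower, and white nuclei alone gave 1, 6 and 8 higher for cold and 4, 11 and 4 for CL. At day3CL the largest changes were of Acly (ATP citrate lyase), 1.51 ± 0.19 (SE), adjusted p = 1.32e-08, Scd2, a desaturase, 1.12 ± 0.20, adjusted p = 8.82e-05, and Acss2, an acetyl-CoA synthetase, 1.09 ± 0.16, adjusted p = 9.75e-07. At day7C they were Elovl6, an elongase, 1.22 ± 0.15, adjusted p = 1.67e-08, Acly, 1.12 ± 0.20, and Acaca, acetyl-CoA carboxylase, 0.89 ± 0.12. CL exceeded cold on day 3 for 8 of the 19 and was lower for 1, where DESeq2 called 1 higher and where 2 passed without day3CL replicate 2. Of all genes 1.01% were higher with CL than with cold on day 3 and 0.444% lower. The direction turned on day 7, where 0 of the 19 were higher with CL and 2 lower, or 0 to 3 lower without 1 mouse. The median difference of the list was 0.231 (log2) on day 3 and -0.234 on day 7. Of all genes 0.0902% were higher and 0.0208% lower on day 7. Scd1, the main stearoyl-CoA desaturase of adipose tissue, was lower with CL than with cold on day 1, -1.17 ± 0.18, adjusted p = 5.87e-05.

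Among 8 tested of 13 ChREBP targets that respond to glucose, Tkt and Txnip were the genes that passed on single days against day0RT. On these days 0.34% to 7.73% of all genes passed. Tkt (transketolase) rose at day3C, day7C, day3CL and day7CL, by 0.76 ± 0.15, 0.87 ± 0.15, 0.91 ± 0.15 and 0.73 ± 0.15 (log2, SE). Txnip, which restrains glucose uptake, was lower at day1CL, -1.43 ± 0.19, adjusted p = 1.6e-06, and at day3CL, -0.77 ± 0.14. Without day1CL replicate 3, 0 genes of the list passed at day1CL, and without day3C replicate 1, 0 passed at day3C. The list's median lay between -0.08 and 0.33 on single days. In beige against white adipocytes 2 of 7 tested were higher and 0 lower, beside 13.6% and 15.2% of all genes. With CL against cold 1 of the 8 was lower on day 1 and 1 on day 3, where 0.458% and 0.444% of all genes were lower. Each of these counts was 0 to 1 without 1 mouse for CL against cold.

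Of 21 tested genes of cholesterol synthesis and uptake (24 listed), 0 passed with edgeR or DESeq2 on any single day of cold or CL. On these days 3 to 5 of them had an unadjusted edgeR p under 0.05, beside 1435 to 3220 of all 14408 genes. Nsdhl alone rose for the mean of the CL days, 0.94 ± 0.30 (log2, SE), adjusted p = 0.0425, which DESeq2 did not call. In beige against white adipocytes 3 of the cholesterol genes were higher and 0 lower: Hmgcs1, 0.47 ± 0.13, Lss, 0.38 ± 0.11, and Acat2, 0.25 ± 0.09, all enzymes of the pathway. The fatty acid genes split, with 3 higher in beige, Elovl6 (0.89 ± 0.07) the most, and 7 lower, Fads2 (-1.39 ± 0.15) and Fads1 (-1.02 ± 0.13), both desaturases, the most. Of all genes 13.6% were higher and 15.2% lower in beige, so the share of cholesterol genes called higher was near the background.

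The factors around the regulators were set beside the share of all genes that passed. Of 13 tested genes of SREBP processing and its cofactors (17 listed), Nfyc, a subunit of NF-Y, rose at day7CL, 0.51 ± 0.16 (log2, SE), adjusted p = 0.0309, and no other passed on a single day. Of all genes 7.73% passed at day7CL. DESeq2 called 0 of the 13. In beige adipocytes 3 were higher and 2 lower, beside 13.6% and 15.2% of all genes, where DESeq2 called 3 and 0. The largest changes were of Nfyc, 0.59 ± 0.09, and of Sp1, a cofactor of SREBPs, -0.42 ± 0.16. Of 9 partners of Mlx and the Thrsp paralog, Mxd4 rose at day3CL, 0.93 ± 0.24, adjusted p = 0.00989, which DESeq2 did not call. Of all genes 4.77% passed at day3CL. Mlxip, which encodes MondoA, the closest relative of ChREBP, was higher in beige, 0.52 ± 0.08, adjusted p = 2.39e-08.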

How the data were processed

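Single-nucleus ATAC-seq of iWAT was made by combinatorial indexing. The authors deposited a peak-by-nucleus matrix of counts (unnormalised, 0 or 1 per nucleus and peak) on mm10 with a table of nuclei giving mouse, group and cluster. Per the study's methods, reads were aligned with Bowtie2, filtered on mapping quality and deduplicated per nucleus, peaks were called per initial cluster with MACS2 and merged, and nuclei with few reads, few reads in peaks or a high doublet score were removed. The submitters' processing notes also name SAMtools and Signac. The 4 deposited samples are lanes that pool mice, so mouse and group came from the table of nuclei.

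Entries were summed per mouse and cluster. A gene's count was the sum over peaks on its body and 2000 bases upstream (GENCODE protein-coding genes, mm10). The transcript starts and promoter windows were those of RefSeq (GRCm38.p6). The tests were edgeR 4.0.16 quasi-likelihood fits (R 4.3.3, TMM, minimum count 10) over all 7 groups at once, with Benjamini-Hochberg adjustment over all genes or peaks and a threshold of 0.05. Beige and white were fitted with group as a covariate, on libraries of at least 10 nuclei. Neighboring clusters were compared by sign-flip permutation within mice (100000 resamples where not exact), and start ratios by exact permutation (numpy 2.4.6). DESeq2 1.42.0 was an alternative, as were other scalings, filters, peaks and nuclei. The fitting code was tested on simulated data. Adipocyte libraries held 48787 to 3348250 gene counts.

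Every member is named, with the peak at its start, its highest peak and each peak past the threshold. Of each list the text names up to 3 of the largest changes that passed, among genes averaging 20 counts or more per library. This was done for some of the comparisons, and list genes that passed in others are not all named. Of genes most like a member it names the best 3. One result that this rule would name is not reported here. Members and lists were chosen with earlier results of these data known. Mice are the replicates. Their numbers recur across groups, but the deviations of 63 same-numbered pairs over all tested genes had a median correlation of 0.002 (-0.123 to 0.116). Numbers were therefore not used as pairs in the main fits. A correlation over all genes cannot show whether single peaks share an effect of the number. The study names independent batches without tying them to mice. Each of the 288 pairs of first and last barcode indices occurred in 1 replicate number, so a number may mark a batch. Results with the number as a block are therefore given for the β start and the start ratios, with values within numbers for the ratios. Each of the 288 pairs of middle indices occurred in 1 arm (room temperature, cold or CL). Index set and treatment therefore cannot be told apart in comparisons with day0RT or of CL with cold.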

Additional observations from a re-analysis of the deposited data

Results flagged for a closer look

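The Mlx level in the VSMC cluster was marked because the highest of its 10 mice, at 180.6 CPM, lay far from the other mice relative to the range of the group. Mlx had 26 counts in all over these 10 mice, and the smallest VSMC library held 11074 gene counts, so the level rests on few counts. Of 7 groups of at most 10 mice that were examined in this way, 1 was marked, and chance marks about 1 in 20 groups.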

How the results depend on the processing

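For member genes between groups, 0 calls changed under DESeq2, other scaling factors, no filter, white nuclei only, deeper nuclei, only the groups compared or the replicate block. With promoter peaks only, which for Mlxipl is the β start peak alone, Mlxipl passed at day7C, day3CL, day7CL and for both treatment means. Between beige and white 1 gene passed in place of 2. Leaving out 1 mouse gave 0 to 1 member genes for CL against cold on day 1.

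Member peaks depended more on the processing. DESeq2 called 0 at day3C, day7C, day3CL, day7CL and for both means, and 0 distinct peaks in any comparison in place of 3. With no filter 0 passed at day3C, day3CL and for both means, 1 distinct peak in any comparison, and 14 between beige and white in place of 7, where of all calls 5212 were higher and 39019 lower in beige, against 3180 and 3572 with the filter. White nuclei alone gave 2 at day3C, 0 at day7C and 0 for the cold mean. Leaving out 1 mouse gave 0 to 1 peaks at day1C, day7CL, for the CL mean and for CL against cold on day 1, 0 to 2 at day7C and day3CL, and 0 to 3 at day3C and for the cold mean.

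With the replicate block 0 member peaks passed at day3C and day3CL, and 1 distinct peak in any comparison, the β start peak (2.10 at day7C, adjusted p = 0.00463). The mouse block between beige and white left both gene calls. Over all peaks at day7C, 1499 passed, against 29 by DESeq2, 629 without the filter and 158 in white nuclei. At day7CL 2003 passed, against 11, 835 and 849. The cause of these differences was not tested. Low counts limit Scap and the β start at day0RT.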
